A study of Mus musculus with 16 samples.

Results

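Mouse germline stem (GS) cells labelled Hif1a KO were compared with GS cells labelled wild type of the same line, both kept at 20% oxygen. The comparison uses 4 of the 16 RNA-seq libraries of the study, 2 per group, and covers 14841 of the 21924 protein-coding genes in the deposited table, those with a value of at least 1 CPM (read counts scaled to a common total of 1000000) in at least 2 of the 16 libraries. GS cells are cultured mouse spermatogonia, the mitotic germ cells of the testis, in which a small number of cells keep stem cell activity. All 4 cultures were of 129 x C57BL/6 mixed background and grew on feeder cells (mouse embryonic fibroblasts) in medium that held GDNF and FGF2, so the libraries hold RNA from both germ cells and feeders. The cells labelled Hif1a KO had received AxCANCre, an adenovirus that carries Cre recombinase, and the protocol places that treatment on the day of hypoxia treatment. For the cultures kept at 20% oxygen, the time between the virus and the harvest, any control virus for the wild type cells and the deleted exons were not stated in the labels. The virus is not stated to be specific to germ cells. The labels do not say whether the 2 libraries of a group came from separate cultures. The p-values therefore measure only the spread between libraries of a group, estimated over all groups of the 16 libraries. This spread may be technical. The other groups of the Hif1a line, of both labels, were at 1% oxygen. The remaining groups were DBA/2 wild type at 20% and 1% oxygen, and Top1mt KO and C57BL/6 wild type at 1% oxygen.

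HIF-1 is the main transcriptional regulator of the response to low oxygen. Its alpha subunit, encoded by Hif1a, is made all the time, but with oxygen present the prolyl hydroxylases of the Egln genes mark it, the ubiquitin ligase that contains VHL removes it, and the hydroxylase encoded by Hif1an blocks its binding to the coactivators Crebbp and Ep300. When oxygen falls, the protein accumulates, pairs with Arnt, and binds DNA at hypoxia response elements near genes for glycolysis, blood vessel growth and iron handling. The comparison at 20% oxygen therefore addresses the difference between the labels in cultures in which the pathway is not induced by low oxygen.

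The 4 libraries held 16324013 and 20918532 reads (wild type) and 11942104 and 18979146 reads (labelled Hif1a KO), within a range of 11942104 to 25659895 over the 16 libraries. One read is worth 0.0613 and 0.0478 CPM in the wild type libraries and 0.0837 and 0.0527 CPM in the others. Differences are given as log2 fold changes, labelled Hif1a KO minus wild type, on the log2(CPM + 1) scale, which understates the change of low genes, with the standard error (SE). They come from limma fitted over all 16 libraries with a mean for each of 8 groups. A gene was called higher or lower at a Benjamini-Hochberg adjusted p below 0.05 over all genes tested. The CPM scale corrects for depth and not for gene length, so levels are compared between libraries and not between genes.

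Of 14841 genes, 3329 (22.4%) were called: 1912 (12.9%) were higher and 1417 (9.55%) were lower in the libraries labelled Hif1a KO. The rises were larger than the falls. The median was 0.46 among the genes called higher and -0.22 among those called lower, against -0.03 over all genes tested. The called values ran from -0.78 to 1.79, and 29 rises but 0 falls reached 2-fold. At a log2 difference of 0.5 or more there were 809 rises and 75 falls. The 2 libraries of each group did not overlap for 9373 genes (63.2% of those tested). No gene was under 1 CPM in one group and at 10 CPM or more in the other. The number of calls depended on single libraries. There were 1574 calls (1065 higher, 509 lower) without the second library labelled Hif1a KO and 1508 (1085 higher, 423 lower) without the first wild type library. There were 1960 without the second wild type library, with 592 lower, and 2957 without the first library labelled Hif1a KO.

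The germ cell identity of the cultures was clear in all 4 libraries. The summed level of 20 germ cell genes was 5098 and 4991 CPM in the wild type libraries and 4389 and 4113 CPM in the libraries labelled Hif1a KO. The summed level of 31 fibroblast genes, used as feeder markers, was 13508 and 14523 CPM in the wild type libraries and 19231 and 22776 CPM in the others. The feeder sum was thus 1.499 times as high, and the germ cell sum 0.843 times as high, as in the wild type, and the groups did not overlap in either. In bulk RNA, fewer cells of a type and less RNA per cell cannot be told apart. The lists for other cell types were mixed. The testis somatic genes Wt1, Clu, Sox9 and Star were above 1 CPM in all 4 libraries. So were the leukocyte genes Cd68, Lyz2 and Cd14 and the pluripotency genes Klf4, Pou5f1 and Sox2. Wt1 was at 24.2 and 26.3 CPM in the wild type libraries and 23.9 and 24.9 CPM in the others. In all 4 libraries, 9 of 18 testis somatic genes, 6 of 13 leukocyte genes and 3 of 12 pluripotency genes were under 1 CPM. This held for the Sertoli and Leydig cell genes Amh, Fshr, Cyp11a1, Cyp17a1, Hsd3b1, Insl3 and Lhcgr, for the leukocyte genes Itgam, Cd3e, Tyrobp, Fcer1g, C1qa and C1qb, and for the pluripotency genes Nanog, Fgf4 and Tdgf1. The sums over the whole lists were 78.5 to 89.8 CPM for 18 testis somatic genes, 19.4 to 30.2 CPM for 13 leukocyte genes and 266 to 276 CPM for 12 pluripotency genes. Among tested genes of these lists, 1 of 10 somatic genes was called, the smooth muscle gene Cnn1 (0.70 ± 0.12 SE, limma adjusted p = 0.00036), and 0 of 7 leukocyte genes by limma, edgeR or DESeq2 (0 at an unadjusted p below 0.05 in limma). Of 9 tested pluripotency genes, Klf4 was higher (0.37 ± 0.07 SE) and Esrrb lower (-0.38 ± 0.09 SE), and the call of Esrrb was lost without the first library of either group and under germ cell identity scaling (-0.14).

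**Figure D1:**
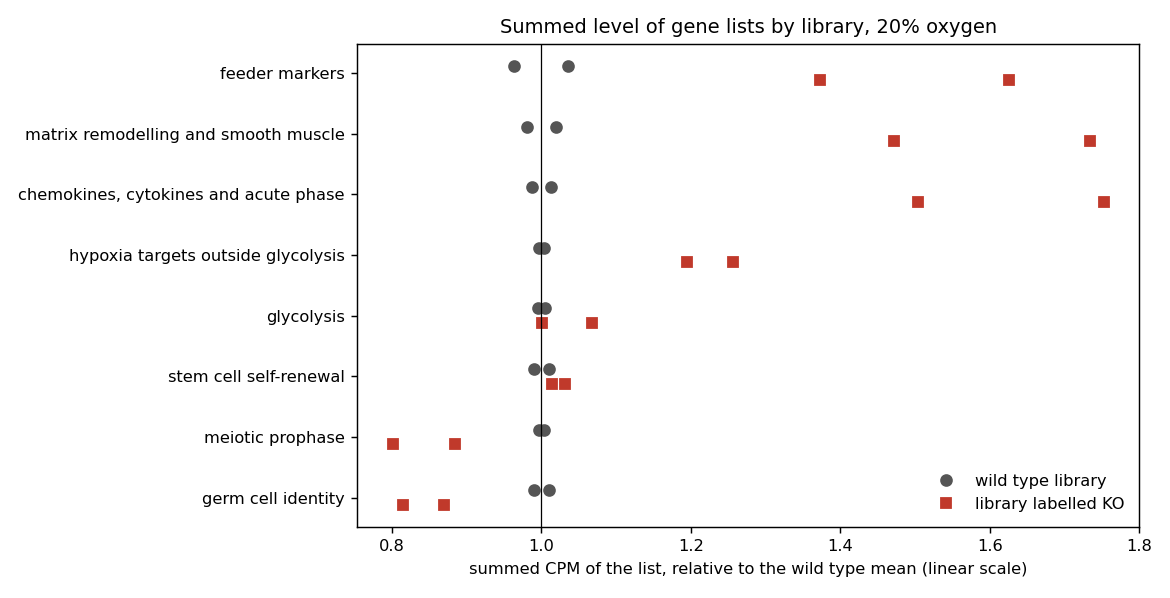
Summed CPM of 8 gene lists at 20% oxygen, relative to the mean of the wild type libraries (linear axis), with 1 circle for each wild type library and 1 square for each library labelled Hif1a KO. The squares lie on average at 1.499 for the feeder markers and at 0.843 for germ cell identity, apart from the circles in both lists.

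The transcript of Hif1a itself was not lower in the libraries labelled Hif1a KO. Hif1a (ENSMUSG00000021109.13, mm10 chromosome 12, 73901375 to 73947530, plus strand) was at 116 and 118 CPM in the wild type libraries and at 139 and 142 CPM in the libraries labelled Hif1a KO. Both libraries labelled Hif1a KO lay above both wild type libraries, a difference of 0.26 ± 0.06 SE (limma adjusted p = 0.0034), and the call held in all alternatives run. This goes against the direction of the label. A read count over the whole gene also holds reads from exons outside a deletion, so it does not show whether a functional protein was made. In the libraries at 1% oxygen, which share no library with this comparison, Hif1a was higher in the libraries labelled Hif1a KO as well, at 606 against 251 CPM on average.

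Among the 17 genes of the HIF pathway, 1 (5.88%, against 12.9% of all genes tested) was higher, Hif1a, and 4 (23.5%, against 9.55%) were lower. The median was -0.05, which became 0.19 under a scaling of the libraries to equal germ cell identity sums. Epas1, which encodes the alpha subunit of HIF-2, was at 50.9 and 52.4 CPM in the wild type libraries and 57.4 and 56.7 CPM in the others, and was not called (0.14 ± 0.06 SE, limma adjusted p = 0.087). The partner subunits Arnt (-0.08 ± 0.05 SE) and Arnt2 (-0.02 ± 0.09 SE) and the inhibitory subunit gene Hif3a (-0.03 ± 0.08 SE) were not called either. Egln3, a prolyl hydroxylase gene that is itself a HIF target, fell from 18.1 and 18.8 CPM to 15.8 and 14.96 CPM (-0.25 ± 0.06 SE, limma adjusted p = 0.0082). Its relatives Egln1 (-0.05 ± 0.06 SE) and Egln2 (-0.09 ± 0.08 SE) were not called.

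The coactivator gene Crebbp was at 476 and 496 CPM in the wild type libraries and 431 and 404 CPM in the others (-0.22 ± 0.05 SE). Its relative Ep300 differed by -0.15 ± 0.05 SE and Hif1an by -0.16 ± 0.05 SE, both called. The calls of Egln3, Crebbp, Ep300 and Hif1an were lost without the second library labelled Hif1a KO and without the second wild type library. Egln3, Ep300 and Hif1an were also not called by edgeR or DESeq2 on read counts, and Crebbp, Ep300 and Hif1an turned slightly positive when libraries were scaled to equal germ cell identity sums. Vhl (-0.04 ± 0.06 SE), the adaptor subunits Elob and Eloc, the scaffold Cul2 and Rbx1 of the VHL ubiquitin ligase, and Siah2, a ligase gene that acts on the hydroxylases, were not called.

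**Figure D2:**
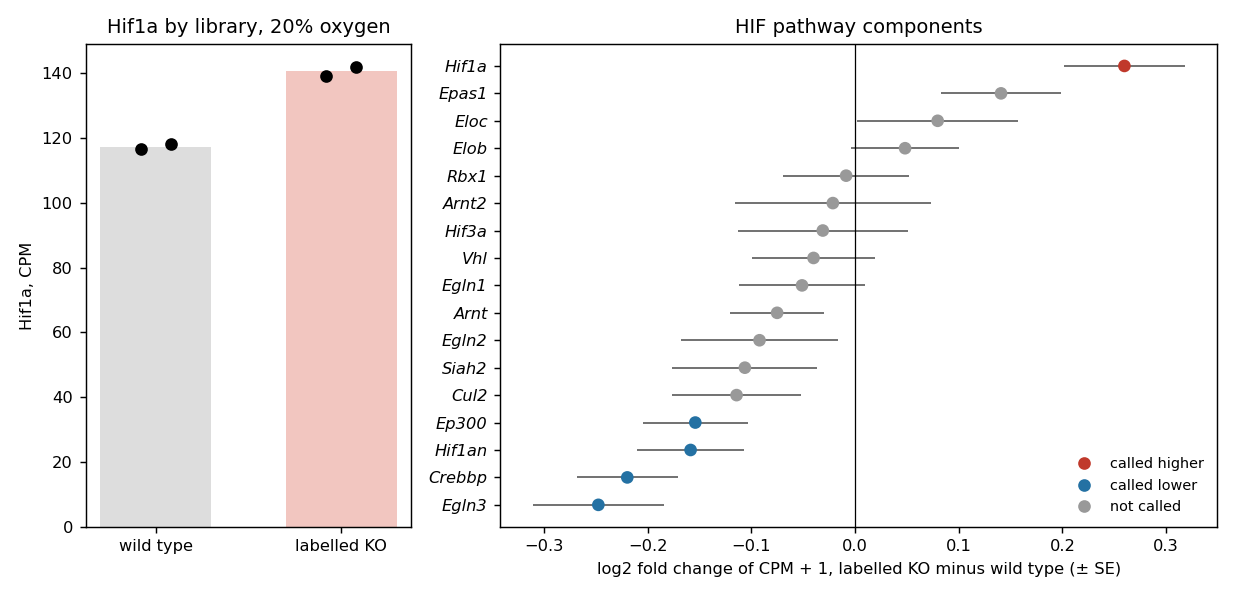
Left, Hif1a (CPM) in each of the 4 libraries at 20% oxygen, with points for libraries and bars for the group means. Right, log2 fold change of CPM + 1 with SE, labelled Hif1a KO minus wild type, for the 17 HIF pathway genes, colored by call, in which Hif1a (0.26) is the 1 gene called higher and Egln3, Crebbp, Hif1an and Ep300 are the 4 called lower.

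Known hypoxia targets outside glycolysis did not fall as a list. Of 44 such genes, 14 (31.8%, against 12.9% of all genes tested) were higher and 3 (6.82%, against 9.55%) were lower. The share of rises thus lay above that of all genes tested, while the median of 0.01 lay near their -0.03. Leaving out single libraries gave 12 to 15 rises and 1 to 4 falls. Lox, a collagen cross-linking enzyme gene, was at 456 and 483 CPM in the wild type libraries and 738 and 852 CPM in the libraries labelled Hif1a KO (0.76 ± 0.10 SE). Tmem45a (0.74 ± 0.12 SE), the mTORC1 inhibitor gene Ddit4 (0.57 ± 0.07 SE) and the circadian repressor gene Bhlhe40 (0.57 ± 0.09 SE) were also among the members with the smallest adjusted p-values. Lox is also a gene of fibroblasts, and the feeder sum was 1.499 times as high in the same libraries. The part of the feeder share in these rises was not tested.

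Other members of the hypoxia list, chosen for their known roles after their values were seen, moved in several directions. Vegfa, the vascular growth factor gene, was at 29.0 and 29.4 CPM in the wild type libraries and 38.4 and 43.6 CPM in the others (0.47 ± 0.09 SE, limma adjusted p = 0.00083). The hormone gene Adm rose by 0.41 ± 0.09 SE and Stc1 by 0.76 ± 0.13 SE. The 3 falls were Egln3, the histone demethylase gene Kdm3a (233 and 237 against 206 and 186 CPM, -0.26 ± 0.05 SE) and Tfrc, the transferrin receptor gene that takes up iron (326 and 318 against 285 and 252 CPM, -0.26 ± 0.07 SE). Bnip3, Car9 and Ankrd37 were not called. Bnip3, a mitophagy receptor gene, was at 15.7 and 14.2 CPM in the wild type libraries and 14.7 and 13.4 CPM in the others (-0.08 ± 0.06 SE), and averaged 93.9 CPM in wild type at 1% oxygen. The carbonic anhydrase gene Car9 was at 0.382 CPM or less in all 4 libraries, and Ankrd37 was at 3.61 and 3.92 against 3.35 and 2.58 CPM (-0.27 ± 0.11 SE). The calls of Adm and Tfrc were lost without the second library labelled Hif1a KO or the second wild type library, that of Tfrc also without the first wild type library, and those of Kdm3a and Tfrc under the scaling to equal germ cell sums, under which Bnip3 turned positive.

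**Figure D3:**
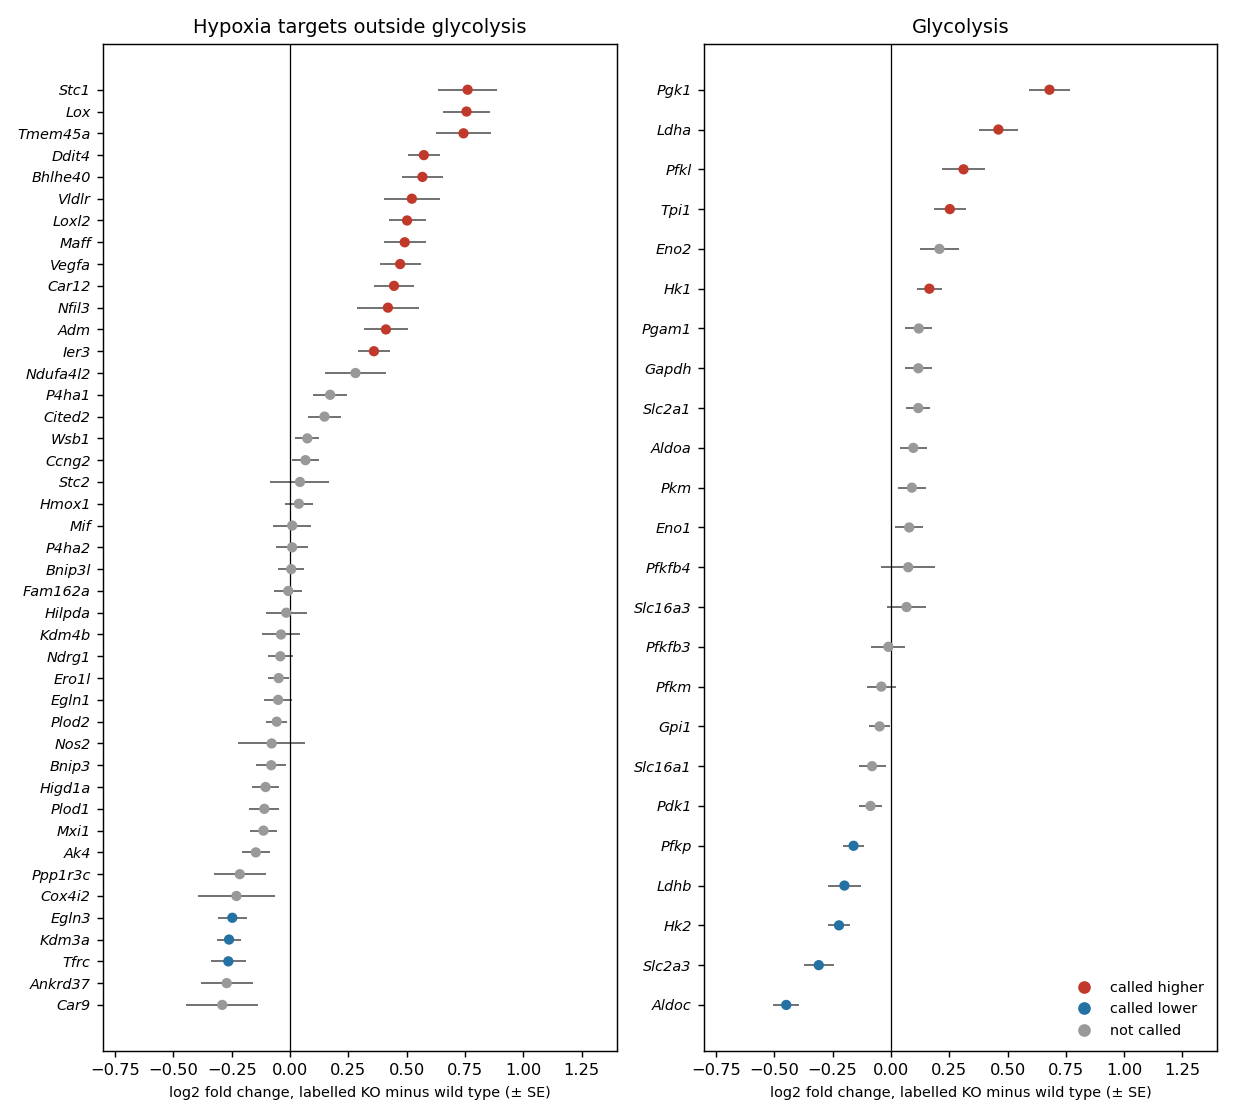
Log2 fold change with SE, labelled Hif1a KO minus wild type at 20% oxygen, for hypoxia targets (left) and glycolytic genes (right), colored by call. Pgk1 at 0.68 lies at the upper end and Aldoc at -0.45 at the lower end of the glycolytic genes, and most of the uncalled members lie near 0.

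Genes of glycolysis, the pathway that breaks glucose down to pyruvate and lactate, changed in both directions. Of 24 genes, 5 (20.8%, against 12.9% of all genes tested) were higher and 5 (20.8%, against 9.55%) were lower (median 0.08). The counts were 2 and 3 without the second library labelled Hif1a KO, as without the first wild type library, and without the second wild type library 3 and 3. Pgk1, the phosphoglycerate kinase gene, was at 21.3 and 20.9 CPM in the wild type libraries and 31.5 and 37.7 CPM in the others (0.68 ± 0.09 SE, limma adjusted p = 4.2e-05). Ldha, which makes lactate, rose from 104 and 107 CPM to 134 and 158 CPM (0.46 ± 0.08 SE). Tpi1 (0.25 ± 0.07 SE), Pfkl (0.31 ± 0.09 SE) and Hk1 (0.16 ± 0.05 SE) were the other members called higher. Pgk1, Ldha and Tpi1 have near-identical processed pseudogenes, so their read counts are uncertain.

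Aldoc, the aldolase C gene, fell from 55.3 and 53.1 CPM to 39.4 and 39.5 CPM (-0.45 ± 0.06 SE, limma adjusted p = 3.6e-05). The glucose transporter gene Slc2a3 was at 63.0 and 63.5 CPM in the wild type libraries and 52.9 and 48.9 CPM in the others (-0.31 ± 0.06 SE). Hk2, a hexokinase gene, was lower by -0.22 ± 0.05 SE, and Pfkp (-0.16 ± 0.05 SE) and Ldhb (-0.20 ± 0.07 SE) were the remaining falls, but the signs of Hk2, Pfkp and Ldhb turned under the germ cell scaling, and Slc2a3 (-0.0663) lost its call. Slc2a1, the basal glucose transporter gene (0.12 ± 0.05 SE), and the lactate exporter gene Slc16a3 (0.07 ± 0.08 SE) were not called. The calls of Pfkp and Ldhb were also lost with edgeR and DESeq2, that of Hk1 with DESeq2, and those of Tpi1, Pfkl, Hk1, Pfkp and Ldhb without the second library labelled Hif1a KO and without the first wild type library. Those of Pfkl, Hk1, Pfkp and Ldhb were lost without the second wild type library as well, and that of Ldhb without the first library labelled Hif1a KO.

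The promoters of 4 of these genes show how the hypoxia response core is placed in genes that moved in opposite directions. The sequences are the 250 bases before the gene start in RefSeq (GRCm38.p6), written 5′ to 3′ along the gene's strand, with the letters ACGTG or GCGTG on either strand in capitals. The windows are chrX:106186850-106187099 (plus strand) for Pgk1, chr7:46845554-46845803 (plus) for Ldha, chr12:54203875-54204124 (minus) for Egln3 and chr6:71632918-71633167 (minus) for Kdm3a.
Pgk1: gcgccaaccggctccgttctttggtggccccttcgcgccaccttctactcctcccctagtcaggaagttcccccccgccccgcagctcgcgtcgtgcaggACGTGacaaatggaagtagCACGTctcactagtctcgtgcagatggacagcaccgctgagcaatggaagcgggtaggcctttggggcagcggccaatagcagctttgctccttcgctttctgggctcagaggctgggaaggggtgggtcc
Ldha: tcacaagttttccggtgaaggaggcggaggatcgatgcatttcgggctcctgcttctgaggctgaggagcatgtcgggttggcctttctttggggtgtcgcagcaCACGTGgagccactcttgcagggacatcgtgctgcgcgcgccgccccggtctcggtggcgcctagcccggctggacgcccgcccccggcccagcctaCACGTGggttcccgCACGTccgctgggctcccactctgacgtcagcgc
Egln3: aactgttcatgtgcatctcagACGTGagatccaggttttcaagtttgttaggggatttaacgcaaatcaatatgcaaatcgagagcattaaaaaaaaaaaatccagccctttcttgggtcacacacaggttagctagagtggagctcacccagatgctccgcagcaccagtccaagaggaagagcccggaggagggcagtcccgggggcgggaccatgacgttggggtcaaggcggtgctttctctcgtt
Kdm3a: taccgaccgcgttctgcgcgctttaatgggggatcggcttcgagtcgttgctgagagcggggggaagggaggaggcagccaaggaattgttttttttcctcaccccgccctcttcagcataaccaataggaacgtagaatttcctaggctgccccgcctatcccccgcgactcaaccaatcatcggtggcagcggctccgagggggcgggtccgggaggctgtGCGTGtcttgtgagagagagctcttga
Pgk1 and Ldha were higher and Egln3 and Kdm3a were lower in the libraries labelled Hif1a KO. The Pgk1 window held 2 matches and the Ldha window 5, counting both strands of the CACGTG palindrome, and the Egln3 and Kdm3a windows held 1 each. In windows of the same length not printed here, Tfrc, called lower, held 2 matches and Vegfa, called higher, held 0, so the number of matches did not follow the direction in these 6 genes. The RefSeq start of Ldha lies 4329 bases from the gene start in the GENCODE annotation. The core was also counted over windows of 300 bases (250 before and 50 after the start), where some genes had more than 1 promoter and others none. It was in 33 of 44 promoters of the hypoxia list, which belong to 30 of its 44 genes. In the glycolysis list it was in 28 of 36 promoters, which belong to 23 of its 24 genes. The core was in 59.8% of the promoters of all genes tested, in 54.3% of those of genes called higher and in 66.1% of those of genes called lower, against 43.8% of all promoters in the table. A match of these letters is a description of the window and not a binding site.

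Genes of fibroblasts and their extracellular matrix were mostly higher. Of the 31 feeder markers, 28 (90.3%, against 12.9% of all genes tested) were higher and 0 (against 9.55%) were lower. Their median was 0.55 and their range 0.24 to 1.10. The count of rises was 19 without the second library labelled Hif1a KO and 20 without the first wild type library. Fn1, the fibronectin gene, was at 3580.3 and 3855 CPM in the wild type libraries and 5499 and 6089 CPM in the others (0.64 ± 0.11 SE, limma adjusted p = 0.0003). Ccn2, a matricellular growth factor gene, rose from 118 and 116 CPM to 232 and 273 CPM (1.10 ± 0.11 SE), and the proteoglycan gene Bgn from 846 and 861 CPM to 1324 and 1612 CPM (0.77 ± 0.10 SE). The contractile genes Tagln (0.92 ± 0.11 SE) and Acta2 (0.83 ± 0.11 SE) and the mesenchymal transcription factor gene Prrx1 (0.69 ± 0.09 SE) rose as well.

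The collagens among these markers rose less. Of 8 collagen genes, 6 (75%, against 12.9% of all genes tested) were higher and 0 (against 9.55%) were lower, with a median of 0.39. The number of rises went up or down with the library left out. Most of these calls were lost without the second library labelled Hif1a KO and without the first wild type library. Col1a1 was at 1363 and 1512 CPM in the wild type libraries and 1691 and 2188 CPM in the others (0.42 ± 0.12 SE), and Col3a1 at 980 and 1111 against 1127 and 1485 CPM (0.31 ± 0.11 SE, not called). The second library labelled Hif1a KO was higher than the first for all of Fn1, Ccn2, Bgn, Col1a1 and Col3a1. The call of Col1a1 was lost without that library, without the first wild type library and with DESeq2. A difference between markers was not tested.

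Genes for matrix remodelling and smooth muscle rose in 25 of 28 cases (89.3%, against 12.9% of all genes tested). In this list 1 gene fell (3.57%, against 9.55%), and the median was 0.73. The list shares 7 members with the feeder markers, Tagln, Acta2 and Bgn among them, and Lox with the hypoxia list. Mmp10, a stromelysin gene, had the largest rise of all genes named, from 2.45 and 3.54 CPM to 13.6 and 11.8 CPM (1.79 ± 0.19 SE, limma adjusted p = 1.1e-05). The related matrix metalloproteinase genes Mmp3 (0.81 ± 0.12 SE), Mmp13 (0.89 ± 0.13 SE) and Mmp14 (0.59 ± 0.11 SE) rose together with the inhibitor gene Timp1, which went from 216 and 236 CPM to 370 and 434 CPM (0.82 ± 0.11 SE). The tropomyosin gene Tpm1 rose by 0.58 ± 0.07 SE and the elastic fibre gene Fbln5 by 0.74 ± 0.09 SE. Fbln1, a basement membrane glycoprotein gene, was the member that fell, from 210 and 220 CPM to 192 and 199 CPM (-0.14 ± 0.05 SE). Its call was lost without any 1 of the 4 libraries and with edgeR and DESeq2, and its sign turned under the germ cell scaling.

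Genes for secreted signals rose too. Of 18 tested chemokine, cytokine and acute phase genes, 14 (77.8%, against 12.9% of all genes tested) were higher and 0 (against 9.55%) were lower (median 0.57). The list sum was 754 and 774 CPM in the wild type libraries and 1149 and 1339 CPM in the others. Csf1, the macrophage colony-stimulating factor gene, rose from 236 and 231 CPM to 391 and 448 CPM (0.84 ± 0.13 SE), and the monocyte chemokine gene Ccl2 from 130 and 136 CPM to 191 and 230 CPM (0.65 ± 0.14 SE). The pentraxin gene Ptx3 (0.85 ± 0.11 SE), the iron-chelating lipocalin gene Lcn2 (0.95 ± 0.18 SE), Ccl7 (0.66 ± 0.09 SE), Cxcl12 (0.56 ± 0.10 SE) and Il6 (0.54 ± 0.11 SE) were also higher. The call of Ccl2 was lost without the second library labelled Hif1a KO.

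Growth factors and IGF binding proteins of the stem cell niche were higher in 16 of 23 cases (69.6%, against 12.9% of all genes tested). They were lower in 0 (against 9.55%), with a median of 0.56. The list shares 3 genes with the cytokine list, Csf1, Cxcl12 and Lif. Kitl, the ligand of the KIT receptor, was at 17.9 and 17.5 CPM in the wild type libraries and 30.2 and 28.8 CPM in the others (0.70 ± 0.08 SE, limma adjusted p = 2.2e-05). Fgf2, whose protein is also added to the medium, rose from 12.3 and 10.2 CPM to 20.0 and 19.9 CPM (0.78 ± 0.14 SE). Gdnf, the other added factor, was at 2.02 and 2.25 against 2.51 and 2.53 CPM and was not called (0.17 ± 0.14 SE). Igfbp7 (0.88 ± 0.10 SE), Fgf7 (0.80 ± 0.10 SE) and the EGF family ligand gene Ereg (0.97 ± 0.13 SE) rose. The part of the 1.499 times higher feeder sum in the rises of the matrix, cytokine and niche lists was not tested.

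**Figure D4:**
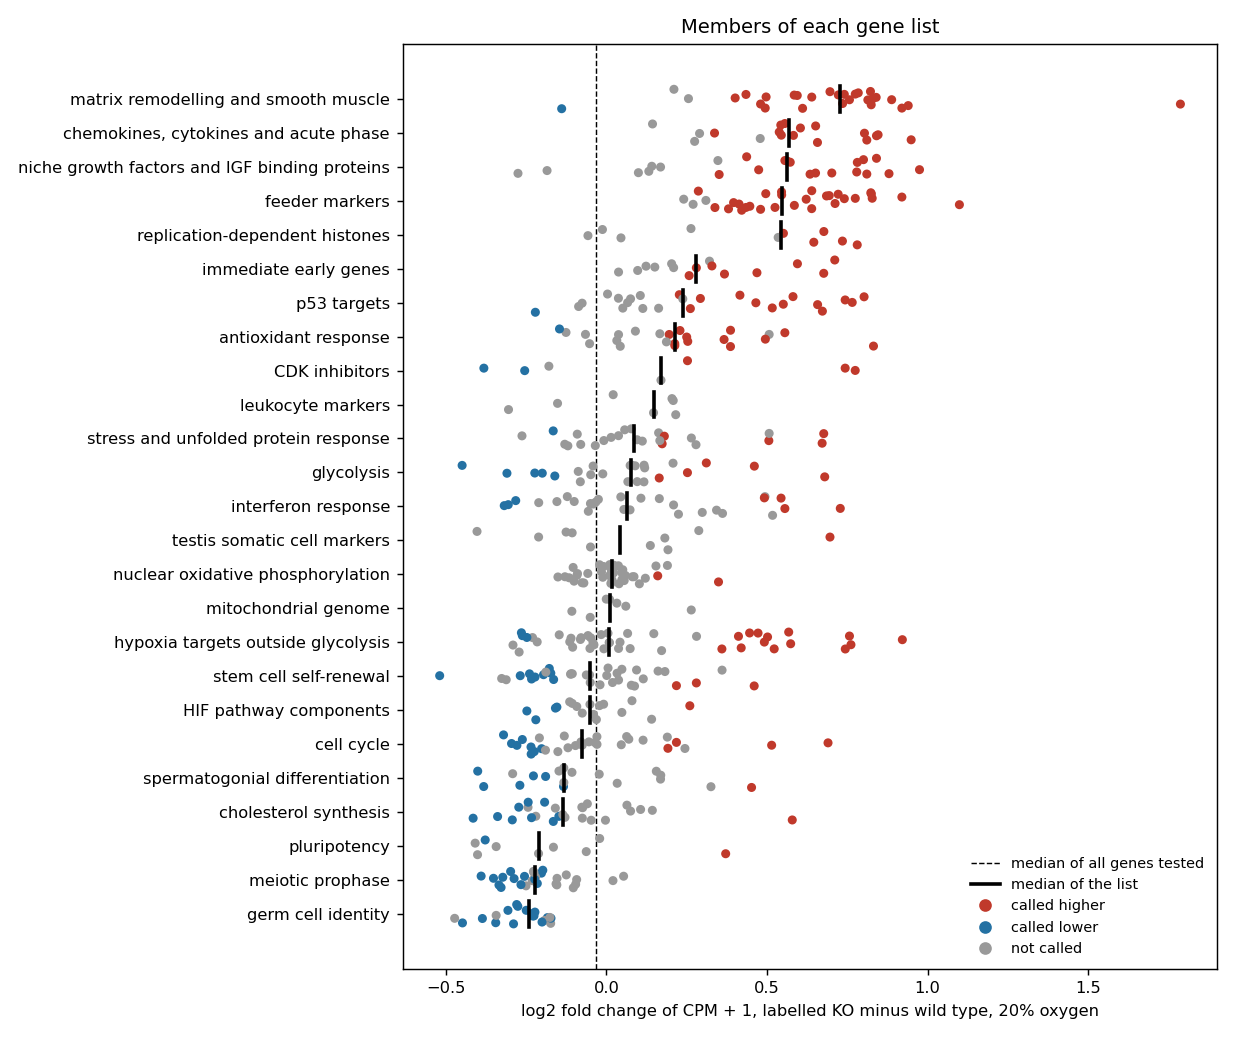
Log2 fold change of CPM + 1, labelled Hif1a KO minus wild type at 20% oxygen, of each tested member of each gene list (points, colored by call and spread vertically for display), with the median of the list (bar) and of all genes tested (dashed line). The medians of matrix remodelling (0.73), chemokines (0.57), niche factors (0.56) and feeder markers (0.55) lie highest, and those of germ cell identity (-0.24) and meiotic prophase (-0.22) lie lowest.

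Germ cell genes were lower by a small and similar amount. Of 20 germ cell identity genes, 15 (75%, against 9.55% of all genes tested) were lower and 0 (against 12.9%) were higher. Their range was -0.47 to -0.17, with a median of -0.24 that became 0.0067 when libraries were scaled to equal sums of this same list. The germ cell scaling moved the median of all genes from -0.03 to 0.19. Dazl, an RNA-binding protein gene needed for germ cell development, was at 849 and 839 CPM in the wild type libraries and 762 and 679 CPM in the others (-0.23 ± 0.06 SE, limma adjusted p = 0.0063). Ddx4, the germ cell RNA helicase gene, fell from 514 and 479 CPM to 443 and 406 CPM (-0.23 ± 0.06 SE). Genes of the piRNA pathway, which silences transposons, had the smallest adjusted p-values: Tdrd9 (206 and 199 against 160 and 150 CPM, -0.39 ± 0.06 SE), Piwil4 (-0.45 ± 0.08 SE), Tdrd1 (-0.31 ± 0.05 SE) and Mov10l1 (-0.28 ± 0.05 SE). The call of Piwil4 held under the germ cell scaling, the calls of Tdrd9, Tdrd1, Mov10l1 and Taf7l did not, and Dazl and Ddx4 turned slightly positive. Of the 20 genes, 8 were lower without the second library labelled Hif1a KO, as without the first wild type library, and the calls of Dazl and Ddx4 were then lost.

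Genes for stem cell self-renewal moved in both directions. Of 35 genes, 3 (8.57%, against 12.9% of all genes tested) were higher and 9 (25.7%, against 9.55%) were lower, with a median of -0.05 that became 0.18 under the germ cell scaling. Leaving out single libraries gave 2 rises and between 2 falls (without the second library labelled Hif1a KO) and 7 falls, with 5 without the first wild type library and 4 without the second. The GDNF receptor gene Gfra1 was at 216 and 200 CPM in the wild type libraries and 215 and 196 CPM in the others (-0.02 ± 0.07 SE), and the GDNF-induced genes Etv5 (-0.06 ± 0.06 SE), Bcl6b (-0.05 ± 0.07 SE) and Id4 (0.05 ± 0.07 SE) were not called, and Gfra1, Etv5 and Bcl6b turned positive under the germ cell scaling and without the second library labelled Hif1a KO, Gfra1 also without the first wild type library. Ret, which encodes the signalling chain of the GDNF receptor, fell by -0.16 ± 0.04 SE, and Zbtb16, a transcription factor gene of undifferentiated spermatogonia, by -0.17 ± 0.05 SE, but both turned positive under the germ cell scaling. The chromatin protein gene Utf1 had the lowest value, at 20.4 and 21.3 against 13.8 and 14.7 CPM (-0.52 ± 0.10 SE), and the transcription factor gene Sall4 (-0.22 ± 0.05 SE) and the adhesion gene Epcam (-0.24 ± 0.05 SE) were lower, although Sall4 and Epcam turned slightly positive and Utf1 lost its call (-0.28) under the germ cell scaling. The rises were the integrin gene Itgb1, from 665 and 638 CPM to 883 and 910 CPM (0.46 ± 0.06 SE), the cyclin gene Ccnd2 (0.22 ± 0.05 SE) and the growth factor response gene Egr3 (0.28 ± 0.09 SE). Itgb1 is expressed in fibroblasts as well. The calls of Ret, Sall4, Zbtb16 and Egr3 were lost without the second library labelled Hif1a KO, that of Ret also without the second wild type library, and those of Zbtb16 and Egr3 without any 1 of the 4 libraries.

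By list median, genes of meiosis fell about as much as the germ cell genes, and genes of differentiating spermatogonia fell less. Of 18 differentiation genes, 1 (5.56%, against 12.9% of all genes tested) was higher and 6 (33.3%, against 9.55%) were lower. Their median was -0.13, and 0.11 under the germ cell scaling. Stra8, a retinoic acid response gene at the entry into meiosis, was at 66.9 and 68.0 CPM in the wild type libraries and 49.8 and 53.3 CPM in the others (-0.38 ± 0.08 SE, limma adjusted p = 0.0013). The receptor gene Kit fell by -0.19 ± 0.06 SE, was not called by DESeq2 and turned positive under the germ cell scaling, and the retinoic acid degrading enzyme gene Cyp26b1 rose by 0.45 ± 0.13 SE. The calls of Kit and Cyp26b1 were lost without the second library labelled Hif1a KO and without the first wild type library, that of Cyp26b1 also without the second wild type library, and 2 of the 18 genes were then lower in each of the first 2 cases and 3 in the last. Of 28 meiotic prophase genes, 13 (46.4%, against 9.55% of all genes tested) were lower and 0 (against 12.9%) were higher. Their median of -0.22 became 0.0041 under the germ cell scaling. Stag3, a meiotic cohesin gene, fell from 356 and 353 CPM to 303 and 274 CPM (-0.30 ± 0.05 SE). Hormad1, a chromosome axis gene, went from 23.0 and 23.0 CPM to 17.2 and 17.4 CPM (-0.39 ± 0.08 SE), and Sycp3, a synaptonemal complex gene, fell by -0.35 ± 0.10 SE. The number of lower meiotic genes was 3 without the second library labelled Hif1a KO, 4 without the first wild type library, 5 without the second wild type library, and 6 with DESeq2. The call of Sycp3 was lost without the second library of either group. The part of the 0.843 times as high germ cell sum in these falls was not tested.

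Of 25 genes that p53 activates, 13 (52%, against 12.9% of all genes tested) were higher and 1 (4%, against 9.55%) was lower (median 0.24). The part of the 1.499 times higher feeder sum in these rises was not tested. The same holds for the rises of the CDK inhibitor, cell cycle, histone, immediate early, stress and antioxidant genes below. Cdkn1a, the CDK inhibitor p21 gene, was at 111 and 120 CPM in the wild type libraries and 179 and 211 CPM in the others (0.74 ± 0.10 SE, limma adjusted p = 6.2e-05). Ccng1, a cyclin G gene, rose from 201 and 210 CPM to 306 and 308 CPM (0.58 ± 0.06 SE), Eda2r by 0.67 ± 0.09 SE, Phlda3 by 0.66 ± 0.10 SE and Plk2 by 0.47 ± 0.07 SE. The ubiquitin ligase gene Mdm2 rose by 0.23 ± 0.05 SE, and Trp53 itself was at 104 and 103 against 109 and 113 CPM (0.11 ± 0.05 SE, not called). Of 7 CDK inhibitor genes, Cdkn1a among them, 3 (42.9%, against 12.9% of all genes tested) were higher and 2 (28.6%, against 9.55%) were lower. Cdkn2b rose from 27.4 and 29.4 CPM to 44.9 and 54.0 CPM (0.77 ± 0.10 SE), while the falls of Cdkn1b (-0.38 ± 0.11 SE) and Cdkn1c (-0.25 ± 0.08 SE) were not called by edgeR or DESeq2, nor without either library labelled Hif1a KO. The call of Cdkn1b was also lost without the second wild type library, and that of Cdkn1c without the first.

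Cell cycle genes were split. Of 30 genes, 4 (13.3%, against 12.9% of all genes tested) were higher and 8 (26.7%, against 9.55%) were lower. The median was -0.08, and 0.17 under the germ cell scaling. Ccnd1, the cyclin D1 gene, was at 339 and 350 CPM in the wild type libraries and 517 and 598 CPM in the others (0.69 ± 0.10 SE, limma adjusted p = 6.6e-05). Among the 8 falls, the mitotic cyclin gene Ccnb1 went from 109 and 104 CPM to 88.6 and 81.7 CPM (-0.32 ± 0.06 SE), Cdc20 fell by -0.26 ± 0.05 SE, Aurka by -0.28 ± 0.06 SE and the proliferation marker Mki67 by -0.23 ± 0.06 SE. Among these falls, the calls of Ccnb1, Cdc20 and Aurka were lost under the germ cell scaling, and Mki67 turned slightly positive. Leaving out the second library labelled Hif1a KO, 2 genes were higher and 4 lower, and without the first wild type library 3 and 4, and the call of Mki67 was lost in both cases. Of 10 tested replication-dependent histone genes, 5 (50%, against 12.9% of all genes tested) were higher and 0 (against 9.55%) were lower. The summed level over the list was 67.6 and 68.0 CPM against 91.8 and 110 CPM. Most of these transcripts lack the poly(A) tail that the library kit selects, so their values here are uncertain.

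Immediate early genes, which growth factors and stress induce within minutes, were higher in 8 of 15 cases (53.3%, against 12.9% of all genes tested). They were lower in 0 (against 9.55%), with a median of 0.28. Fosb, an AP-1 subunit gene, was at 142 and 150 CPM in the wild type libraries and 216 and 266 CPM in the others (0.71 ± 0.11 SE, limma adjusted p = 0.00014). Fosl1 (0.59 ± 0.08 SE), Fosl2 (0.37 ± 0.07 SE) and the stress factor gene Atf3 (0.68 ± 0.09 SE) also encode AP-1 or related proteins and rose. Of 24 genes of the stress and unfolded protein response, 5 (20.8%, against 12.9%) were higher and 1 (4.17%, against 9.55%) was lower (median 0.09). Nupr1 rose from 30.8 and 33.6 CPM to 48.5 and 55.4 CPM (0.67 ± 0.11 SE), while the fall of the asparagine synthetase gene Asns (-0.17 ± 0.06 SE) turned positive under the germ cell scaling. The rises numbered 5 immediate early genes and 2 stress genes without the second library labelled Hif1a KO, and without the first wild type library 6 and 3. The call of Asns was lost without the second library labelled Hif1a KO, without either wild type library and with edgeR and DESeq2.

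Antioxidant genes were higher in 12 of 23 cases (52.2%, against 12.9% of all genes tested) and lower in 1 (4.35%, against 9.55%), with a median of 0.21. The rises numbered 4 without the second library labelled Hif1a KO, without the first wild type library 6 and without the second 8. Nqo1, a quinone reductase gene and classical NRF2 target, was at 29.6 and 30.7 CPM in the wild type libraries and 56.6 and 52.4 CPM in the others (0.83 ± 0.13 SE, limma adjusted p = 0.00013). The glutathione peroxidase gene Gpx3 rose by 0.56 ± 0.09 SE, the thioredoxin gene Txn1 by 0.37 ± 0.06 SE and its reductase gene Txnrd1 from 345 and 352 CPM to 411 and 420 CPM (0.25 ± 0.05 SE).

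Cholesterol synthesis genes were lower in 9 of 25 cases (36%, against 9.55% of all genes tested) and higher in 1 (4%, against 12.9%). Their median of -0.14 became 0.11 under the germ cell scaling. The lanosterol synthase gene Lss went from 111 and 107 CPM to 89.2 and 87.9 CPM (-0.29 ± 0.05 SE, limma adjusted p = 0.0004), and Dhcr7 from 142 and 142 CPM to 120 and 116 CPM (-0.27 ± 0.05 SE). Srebf2, the transcription factor gene of the pathway, fell by -0.24 ± 0.05 SE and Insig1, which holds that factor back, by -0.23 ± 0.05 SE, and both turned slightly positive under the germ cell scaling. Without the second wild type library 5 were lower. Mitochondrial genes moved little. Of 40 nuclear genes of oxidative phosphorylation, 2 (5%, against 12.9% of all genes tested) were higher and 0 (against 9.55%) were lower (median 0.02). Of 7 tested genes of the mitochondrial genome, 0 were called by limma, edgeR or DESeq2 (1 at an unadjusted p below 0.05 in limma). Both rises were lost without the second library labelled Hif1a KO or the first wild type library. The cytochrome oxidase gene mt-Co1 was at 5280.1 and 5498 CPM in the wild type libraries and 5659.6 and 5202 CPM in the others (0.01 ± 0.10 SE), and its sign turned without the first library of either group.

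Interferon response genes, which cells can raise on infection with a virus, did not move together. Of 28 tested genes, 4 (14.3%, against 12.9% of all genes tested) were higher and 3 (10.7%, against 9.55%) were lower (median 0.06). Both shares lay near those of all genes tested in this fit. With edgeR 6 were higher and 3 lower (2036 and 1130 of all 14841 genes), and with DESeq2 3 and 3 (1592 and 834). Under the germ cell scaling 16 were higher and 0 lower (6485 and 53 of all genes). The list sum was 850 and 874 CPM in the wild type libraries and 805 and 824 CPM in the others. The RNA sensor gene Ddx58 rose from 13.97 and 13.96 CPM to 18.6 and 23.3 CPM (0.54 ± 0.11 SE), and Oasl2 (0.56 ± 0.14 SE), Rtp4 (0.49 ± 0.14 SE) and Irf7 (0.73 ± 0.22 SE) were also higher, at levels of 6.01 CPM or less. The guanylate-binding protein genes Gbp2 (-0.28 ± 0.06 SE) and Gbp3 (-0.31 ± 0.07 SE) were lower. The widely used marker Isg15 was at 12.6 and 13.8 against 15.7 and 17.2 CPM and was not called (0.30 ± 0.19 SE). The number of rises went up or down with the library left out. The calls of Oasl2, Rtp4 and Irf7 were lost without the second library labelled Hif1a KO and without the first wild type library. That of Gbp2 was lost in the first of these cases. The call of Rtp4 was lost with DESeq2 too, and those of Gbp2 (-0.0364) and Gbp3 (-0.0604) under the germ cell scaling. The list sums of the groups did not overlap, with the libraries labelled Hif1a KO below, but without Gbp2 they did, at 694 and 712 CPM in the wild type libraries and 666 and 701 CPM in the others.

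The 15 largest rises among called genes with a mean of at least 5 CPM in one of both groups ran from 1.09 to 1.79. After Mmp10 came Slpi, a secreted protease inhibitor gene, at 9.99 and 12.5 CPM in the wild type libraries and 40.03 and 41.05 CPM in the others (1.77 ± 0.15 SE, limma adjusted p = 4.6e-06). Serpinb2, the plasminogen activator inhibitor 2 gene, rose from 22.2 and 25.002 CPM to 59.3 and 59.3 CPM (1.30 ± 0.12 SE). Ptgs1, the cyclooxygenase 1 gene, rose from 11.5 CPM on average to 26.9 and 31.1 CPM (1.26 ± 0.13 SE), and Cemip, a hyaluronan-degrading protein gene, from 37.9 and 37.7 CPM to 79.9 and 90.3 CPM (1.15 ± 0.13 SE). The epithelial cytokine gene Tslp (1.219 ± 0.18 SE), the adrenergic receptor gene Adra1d (1.21 ± 0.14 SE), the peptide hormone gene Cck (1.20 ± 0.19 SE) and the retinol dehydrogenase gene Dhrs9 (1.27 ± 0.19 SE) were expressed below 10 CPM in all 4 libraries. Pdk4, which inhibits pyruvate dehydrogenase, rose by 1.11 ± 0.16 SE, Tm4sf1 by 1.09 ± 0.14 SE, the haemoglobin-binding protein gene Hp by 1.09 ± 0.15 SE and the collagen-binding integrin gene Itga2 by 1.09 ± 0.15 SE. Prl2c3 (1.14 ± 0.16 SE) has near-identical family copies, so its value is uncertain. The calls of all 15 genes held in all alternatives run.

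**Figure D5:**
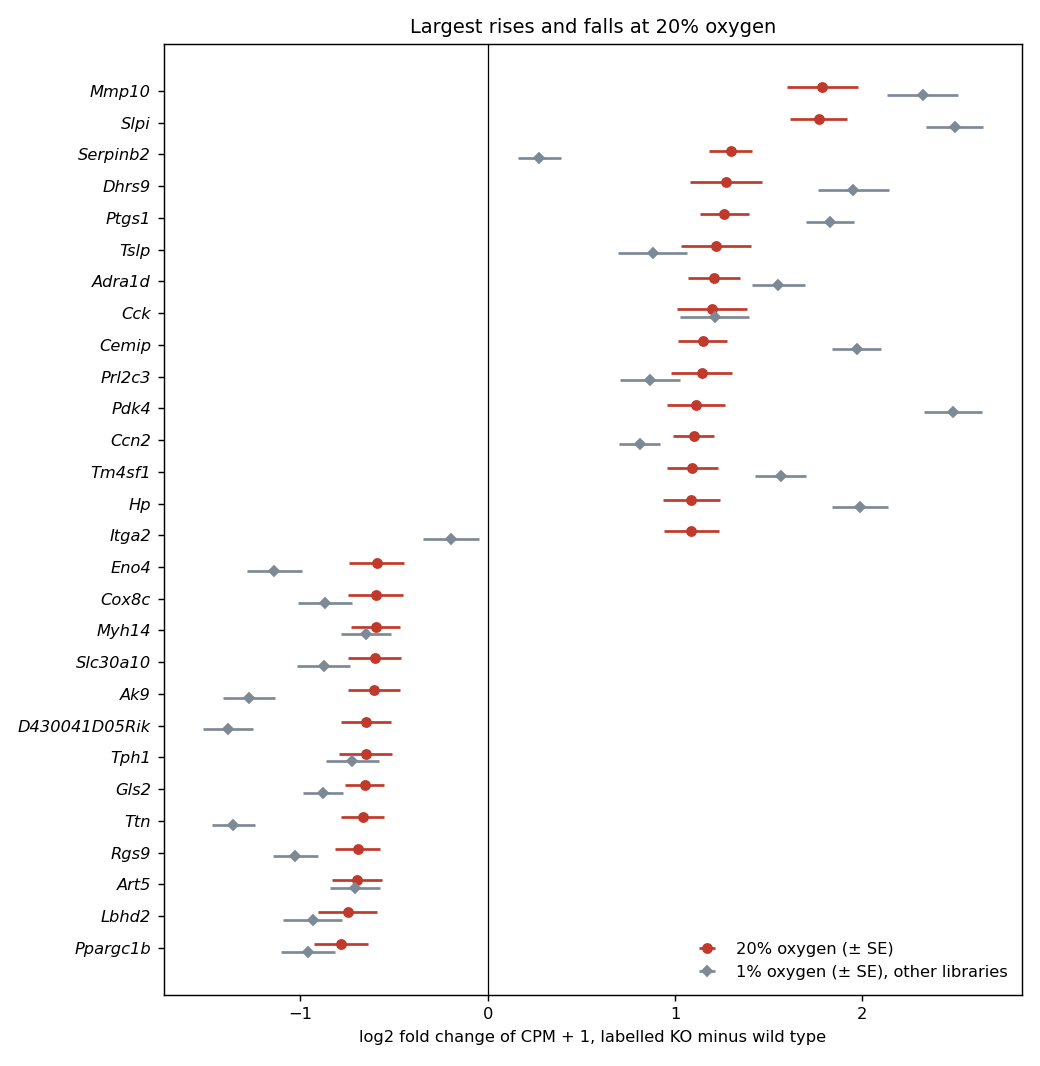
Log2 fold change of CPM + 1 with SE, labelled Hif1a KO minus wild type, at 20% oxygen (circles) and in the separate libraries at 1% oxygen (diamonds), for the 15 largest rises and 13 of the largest falls, which were chosen on the values at 20% oxygen. At 20% oxygen the values reach 1.79 among the rises and -0.78 among the falls.

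The promoters of Mmp10, the largest rise, and of the related Mmp13 hold the AP-1 motif TGANTCA. This motif was looked for after the values were seen. The 250 bases before the RefSeq start (GRCm38.p6, plus strand) are chr9:7502092-7502341 for Mmp10 and chr9:7272264-7272513 for Mmp13, with the motif in capitals.
Mmp10: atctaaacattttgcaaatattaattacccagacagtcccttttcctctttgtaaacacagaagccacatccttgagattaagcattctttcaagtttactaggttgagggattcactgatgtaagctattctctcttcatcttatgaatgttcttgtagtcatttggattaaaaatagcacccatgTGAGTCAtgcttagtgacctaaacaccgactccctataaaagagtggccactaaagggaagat
Mmp13: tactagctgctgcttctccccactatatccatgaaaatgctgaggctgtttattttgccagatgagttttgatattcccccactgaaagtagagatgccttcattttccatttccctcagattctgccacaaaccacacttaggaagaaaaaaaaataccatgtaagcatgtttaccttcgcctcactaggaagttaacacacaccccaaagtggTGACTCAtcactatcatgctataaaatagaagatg
The windows of Mmp3 and Serpinb2 held 1 match each and that of Slpi held 0. The RefSeq start used for Slpi lies 32588 bases from its gene start in the GENCODE annotation. TGANTCA, which reads the same on both strands, was in 5 of 12 promoters (300 bases) of the 15 largest rises and in 0 of 12 of the 13 largest falls considered here. It was in 7.95% of the promoters of all genes called higher, in 5.47% of those called lower and in 5.47% of those of all genes tested. Of the 15 rises, 11 genes had a promoter in the table, and of the 13 falls 10.

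The 15 largest falls were smaller, from -0.78 to -0.59. Ppargc1b, a coactivator gene of mitochondrial biogenesis, was at 5.88 and 6.64 CPM in the wild type libraries and 3.27 and 3.16 CPM in the others (-0.78 ± 0.14 SE, limma adjusted p = 0.00072). Ttn, the giant muscle protein gene, was at 36.1 and 42.5 against 28.0 and 21.1 CPM (-0.67 ± 0.11 SE). The glutaminase gene Gls2 went from 10.7 and 9.66 CPM to 6.03 and 6.11 CPM (-0.66 ± 0.10 SE). Lbhd2 (-0.75 ± 0.16 SE), Art5 (-0.70 ± 0.13 SE), the G protein regulator gene Rgs9 (-0.69 ± 0.12 SE), the serotonin synthesis gene Tph1 (-0.65 ± 0.14 SE) and D430041D05Rik (-0.65 ± 0.13 SE) also fell. The calls of Ak9 and Cox8c were lost without the second library labelled Hif1a KO or the first wild type library. Those of Slc30a10 and Eno4 were lost without the first library labelled Hif1a KO, that of Eno4 also without the first wild type library, and those of Slc30a10 and Myh14 under the germ cell scaling.

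Genes next to Hif1a on chromosome 12 were counted as a group. Of 23 tested genes whose start lies within 2 Mb, 2 were higher and 4 were lower, with a median of -0.06. Over all genes tested, 12.9% were higher and 9.55% lower. Rhoj, a small GTPase gene, rose from 17.5 and 20.99 CPM to 29.3 and 36.8 CPM (0.75 ± 0.12 SE), and Ppm1a rose by 0.14 ± 0.05 SE. Snapc1, which starts after the end of Hif1a, was at 45.8 and 47.2 CPM in the wild type libraries and 40.03 and 39.78 CPM in the others (-0.22 ± 0.06 SE) and turned positive under the germ cell scaling. The other falls were Syne2 (-0.33 ± 0.07 SE), 4930447C04Rik (-0.37 ± 0.08 SE) and Lrrc9 (-0.38 ± 0.13 SE), all of which lost their calls under the germ cell scaling. Without the second library labelled Hif1a KO the calls of Ppm1a, Snapc1, Syne2 and Lrrc9 were lost, and those of Ppm1a, Snapc1 and Lrrc9 also without either wild type library and with DESeq2, and that of Ppm1a without the first library labelled Hif1a KO.

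The same labels were compared at 1% oxygen in 4 other libraries of the line, 2 of each label. The names of these libraries carry a number of days and a final B, and the names of those at 20% oxygen carry neither. Oxygen level can therefore not be told apart from time or from other differences between the sets of libraries. There, 77.4% of the 14841 genes were called, 28.3% higher and 49.1% lower. Of the 1912 genes higher at 20% oxygen, 1818 (95.1%) were also higher at 1% oxygen, which is 43.2% of the 4205 genes higher there, and 12 were lower. Of the 1417 genes lower at 20% oxygen, 1336 (94.3%) were lower at 1% oxygen, which is 18.3% of 7283, and 15 were higher. Across genes, the label differences at 20% and 1% oxygen had a Pearson correlation of 0.769 and a Spearman correlation of 0.729. Genes are not independent replicates, and the feeder and germ cell sums moved the same way in both comparisons. The median of the 1912 genes was 0.46 at 20% and 0.93 at 1% oxygen, and that of the 1417 genes was -0.22 and -0.79. The feeder sum was 1.96 times and the germ cell sum 0.449 times as high in the libraries labelled Hif1a KO at 1% oxygen as in the wild type libraries there.

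The difference between the labels itself differed between the libraries at 20% and at 1% oxygen for 58.0% of genes. Whether oxygen or another difference between these sets of libraries goes with it cannot be told apart. Of the values (20% minus 1%), 5784 (39.0% of genes) were above 0 and 2819 below. This split depended on the scaling: under median-of-ratios scaling 3105 genes were above and 4935 below, under TMM 3517 and 4558, and under the germ cell scaling 80 and 11010. Itga2 and Serpinb2 stood out among the named rises. Itga2 differed by 1.09 ± 0.15 SE at 20% oxygen and by -0.20 at 1%, and Serpinb2 by 1.30 ± 0.12 SE and 0.28. Nt5e, a 5′-nucleotidase gene chosen after its values were seen, differed by 0.98 ± 0.11 SE at 20% oxygen and by -0.17 at 1%. The differences between oxygen levels of Itga2 (1.28), Serpinb2 (1.02) and Nt5e (1.15) kept their calls under median-of-ratios and TMM scaling and lost them under the germ cell scaling (0.41, 0.12 and 0.25). Egln3 was at -0.25 at 20% and at 0.92 at 1% oxygen, but the fall at 20% was -0.0139 (limma adjusted p = 0.894) under the germ cell scaling. Fbln1, Pfkp and Egr3 were also called in opposite directions at the 2 oxygen levels.

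Genes that respond to oxygen in another line were called higher more often than all genes tested, whether low oxygen raised or lowered them there. In DBA/2 GS cells, whose libraries are not part of this comparison, 356 genes (2.40% of those tested) were called and at least 2-fold higher at 1% than at 20% oxygen, and 349 (2.35%) were called and at least 2-fold lower. Of the 356 genes, 79 were higher and 24 lower in the libraries labelled Hif1a KO at 20% oxygen (median 0.03), and of the 349 genes, 91 were higher and 29 lower (median 0.07). Rises were thus 22.2% and 26.1% of the lists, against 12.9% of all genes tested. Without the second library labelled Hif1a KO the rises and falls of both lists were fewer, as were those over all genes tested.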

How the data were processed

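Poly(A) RNA of 16 GS cell libraries was sequenced with a stranded kit, and the 4 libraries compared were grouped by the genotype and oxygen labels. The authors deposited 1 table of CPM values (reads scaled to a total of 1000000) for 21924 protein-coding genes. The submitters' processing notes name cutadapt 1.16, STAR 2.6.0c, HTSeq 0.11.2, DESeq2 1.22.2 and mm10. The CPM steps gave whole reads in 100% of values (within 0.01 read). Gene positions came from GENCODE M21 and promoters from RefSeq GRCm38.p6.

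log2(CPM + 1) was fitted in limma 3.58.1 (R 4.3.3, eBayes with trend) over all 16 libraries with 8 group means, for genes at 1 CPM or more in 2 libraries, and was tested on simulated data. Alternatives were pseudocounts of 0.5 and 5, no filter or a filter at 5 CPM, fewer libraries, median-of-ratios, TMM and germ cell identity scalings, a replicate block, leaving out each library, and edgeR 4.0.16 and DESeq2 1.42.0 on the recovered reads. edgeR called 2036 genes higher and 1130 lower. Precision follows depth, at 11942104 to 20918532 reads in the 4 libraries, and covers counting error only where 1 library is concerned.

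The gene sets, lists and rules were chosen with earlier results of these data known. Genes named were Hif1a; the 15 largest called rises and falls at 5 CPM or more without overlap; up to 5 called members per list with the smallest adjusted p; all HIF pathway genes; and called genes within 2 Mb of Hif1a. Some genes under the rule are not reported here, which left 142, and 43 more were chosen for known roles or after their values were seen. Library numbers were not used to pair the samples in the main fit. Deviations from the group means correlated at 0.0647 between same-numbered libraries at 20% oxygen, and at -0.0635 to 0.101 in the other group pairs checked. A single difference per group cannot decide whether the samples were paired.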

Additional observations from a re-analysis of the deposited data

Results flagged for a closer look

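The difference between the libraries labelled Hif1a KO and wild type was compared between 20% and 1% oxygen for 28 genes with the largest changes and the 17 HIF pathway genes, by the interaction term in limma (Benjamini-Hochberg adjusted p below 0.05 over all genes). Values are the difference at 20% oxygen minus the difference at 1% oxygen, on the log2(CPM + 1) scale. Among the largest rises, the difference was larger at 20% oxygen for Itga2 (1.28) and Serpinb2 (1.02). It was smaller at 20% oxygen for Pdk4 (-1.37), Hp (-0.90), Cemip (-0.82), Slpi (-0.73), Dhrs9 (-0.68), Ptgs1 (-0.56) and Tm4sf1 (-0.47).

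Among the largest falls, the value was above 0 for D430041D05Rik (0.74), Ttn (0.69), Ak9 (0.67) and Eno4 (0.55), which fell further at 1% oxygen. In the HIF pathway, Egln3 (-1.16), Hif1a (-1.01), Arnt2 (-0.60) and Egln1 (-0.31) had values below 0. Those above 0 were Hif3a (0.93), Crebbp (0.73), Hif1an (0.70), Siah2 (0.69), Ep300 (0.44), Cul2 (0.30), Egln2 (0.29), Vhl (0.27) and Eloc (0.26). The feeder sum was 1.499 times as high in the libraries labelled Hif1a KO as in wild type at 20% oxygen and 1.96 times at 1%, and the germ cell sum 0.843 and 0.449 times. The part of either sum in the values was not tested, and oxygen level cannot be told apart from other differences between the sets of libraries.

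The values depended on the scaling of the libraries, which moved the median over all genes from 0.17 to -0.07 (median-of-ratios), -0.03 (TMM) and -0.64 (germ cell identity). The 11 values below 0 kept their sign and call under these 3 scalings. Of the 15 above 0, 9 kept both under median-of-ratios, 10 under TMM and 0 under the germ cell scaling. Cul2, Egln2, Vhl, Eloc and Eno4 lost their calls under median-of-ratios and TMM, and Ak9 under median-of-ratios, where Eloc turned to -0.00655. Under the germ cell scaling 11 of the 15 turned negative, and Itga2, Serpinb2, Hif3a and D430041D05Rik stayed above 0 without a call.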

How the results depend on the processing

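The comparison at 20% oxygen was recomputed under 16 other settings and the difference between oxygen levels under 15, which leave out the fit of 4 libraries. The filter at 5 CPM gave values for 156 of the 158 named genes that were called. Leaving out each library in turn gave 1508 to 2957 calls, 1065 to 1757 of them higher and 423 to 1200 lower. The germ cell identity scaling gave 6538 calls (6485 higher, 53 lower), DESeq2 834 lower and the fit of the 8 libraries of the line 820 lower. Of all calls, 57.4% were higher in the fit described, 64.8% with TMM, 64.3% with edgeR, 66.9% with the 8 libraries and 99.2% with the germ cell scaling. With the replicate block, which pairs same-numbered libraries, there were 3804 calls (2072 higher, 1732 lower), and no named call was lost. For the difference between oxygen levels, the genes above and below 0 were 3105 and 4935 with median-of-ratios, 3517 and 4558 with TMM, 80 and 11010 with the germ cell scaling and 3448 and 4240 with edgeR, and DESeq2 gave 2524 above 0. The cause was not tested.

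Of 158 named genes that were called, 84 kept their direction and call in all settings run for them and 107 in all but the germ cell scaling. That scaling reversed 21 of them: Crebbp 0.0273, Hif1an 0.0878, Ep300 0.0924, Hk2 0.0235, Sall4 0.0239, Epcam 0.0067, Dnmt3b 0.0179, Kit 0.0555, Syce2 0.0429, Asns 0.0795, Srebf2 0.0036, Insig1 0.0132, Snapc1 0.0255, Pfkp 0.0829, Ldhb 0.0412, Fbln1 0.107, Dazl 0.0157, Ddx4 0.0216, Ret 0.0825, Zbtb16 0.0738 and Mki67 0.0127. It also reversed the uncalled Hif3a 0.207, Arnt 0.170, Arnt2 0.216, Vhl 0.202, Egln1 0.192, Egln2 0.153, Siah2 0.135, Cul2 0.129, Rbx1 0.236, Bnip3 0.150, Gfra1 0.227, Etv5 0.184 and Bcl6b 0.194. List medians that turned were HIF pathway 0.192, self-renewal 0.184, differentiation 0.113, meiotic 0.0041, germ cell identity 0.0067, pluripotency 0.0326, cell cycle 0.170 and cholesterol synthesis 0.107. Rbx1 also turned with TMM (0.0074), edgeR (0.0115) and DESeq2 (0.0007). The germ cell scaling divides each library by its germ cell identity sum, which moved the median of all genes from -0.03 to 0.19. Small falls therefore turn under it by arithmetic. The germ cell list, with Dazl and Ddx4, is brought near 0 by construction. The turns under this scaling are thus no separate test of the falls.

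Leaving out 1 library turned uncalled genes near 0, with these ranges over the 4 omissions. Hif3a ranged from -0.0796 to 0.0175, Arnt2 from -0.0655 to 0.0227, Vhl from -0.1003 to 0.0202, Egln1 from -0.1221 to 0.0198 and Rbx1 from -0.0437 to 0.0265. Gfra1 ranged from -0.0841 to 0.0446, Etv5 from -0.1408 to 0.0160, Bcl6b from -0.1394 to 0.0348 and mt-Co1 from -0.0508 to 0.0709, and Eloc from -0.0066 (without the first library labelled Hif1a KO) to 0.166. With 2 libraries a group, 1 library can decide a call. The libraries labelled Hif1a KO differed from each other more than the wild type libraries did (chi-square per gene of 3.84 against 1.82).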

Other observations

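A few genes chosen after their values were seen lie outside the lists. Mgarp, a mitochondrial protein gene known from hypoxic cells, was at 18.6 and 18.3 CPM in the wild type libraries and 12.4 and 12.4 CPM in the libraries labelled Hif1a KO at 20% oxygen (-0.54 ± 0.07 SE, limma adjusted p = 5.2e-05), and differed by -0.13 at 1% oxygen. Spp1, the osteopontin gene, was at 720 and 784 against 1477 and 1683 CPM (1.07 ± 0.15 SE) and differed by 2.26 at 1% oxygen. Cubn, an endocytic receptor gene, was at 6.74 and 6.50 against 4.94 and 3.74 CPM (-0.52 ± 0.14 SE) and differed by 0.25 at 1% oxygen. Col2a1, a cartilage collagen gene, was called higher at 20% oxygen (0.58) and lower at 1% (-0.58), and Dlk1, a gene of fetal mesenchyme, likewise (0.38 and -0.44).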
